A study of Arabidopsis thaliana with 12 samples.

Results

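APS4 and AT3G53580 encode plastid enzymes of sulfate assimilation and of lysine synthesis. In a comparison of dark-kept prors1 and WT Arabidopsis thaliana they lay on opposite sides. APS4 read 0.521 ± 0.12 in prors1 and 0.129 ± 0.030 in WT (deposited intensity, SD, 3 arrays each), higher in prors1. On that scale 52.5% of the 2908 fitted probes had all 3 prors1 arrays above all 3 WT arrays. The ratio of the APS4 means was 4.05 as deposited, and after quantile normalization APS4 was 2.12-fold higher in prors1. AT3G53580 read 0.159 ± 0.023 in prors1 and 0.183 ± 0.050 in WT, a difference smaller than the WT spread. It was lower in prors1 once the arrays had been brought to a common scale. Both genes are named by a single-gene probe, a condition met by 691 genes, and each has 1 such probe. Both were selected on the same intensities, with the contrast between prors1 and WT already known, and AT3G53580 stood among the largest falls. Their values are therefore given as a description, with no test.

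The series holds 12 columns of total RNA measurements, 6 titled prors1 and 6 titled WT. The prors1 plants are a mutant described in the labels as without prolyl-tRNA synthetase, which charges transfer RNA with proline, and the WT plants are of the Columbia 0 ecotype. Both groups were kept in the dark overnight. Neither tissue nor plant age is stated. Groups were read from the titles, because every source label, also that of the prors1 samples, names WT. Separate plants or cultures are not stated either, and any p-value below covers the spread from array to array, technical or not.

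ATP sulfurylase catalyses the entry step of sulfate assimilation. It joins sulfate to ATP, and the product, adenosine 5'-phosphosulfate, is reduced in plastids to sulfite and then to sulfide, which is built into cysteine. The sulfite reductase of this route carries sirohaem as a cofactor. Lysine is made in plastids from aspartate by the diaminopimelate route. Diaminopimelate epimerase turns the LL form of diaminopimelate into the meso form, from which the last enzyme makes lysine. Cysteine and the aspartate family meet in methionine synthesis, where cystathionine beta-lyase acts.

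The array carried 3439 probes, and the deposited scale ran from 0 to 100 with no unit stated. Columns 1 and 2, 3 and 4, and 5 and 6 of a group behaved as readings of the same array. They correlated across probes at 0.951 to 0.961 in prors1 and 0.902 to 0.915 in WT, against 0.881 to 0.895 and 0.840 to 0.878 for other columns. The labels do not state this pairing, which was inferred from the correlations. Each pair was averaged and is called an array here, which left 3 arrays per group. The median intensity above 0 was 0.407 to 0.520 in prors1 columns and 0.224 to 0.289 in WT columns, so a fold on the deposited values includes a shift shared by many probes. Between 412 and 519 probes per column were listed at 0, and neither member was at 0 in any column (0 of 12 for each). PRORS1 had no probe of its own (0), and the level of the mutated gene is not analysed here. With 3 arrays per group the precision of each value is limited.

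APS4, the sulfate-activating enzyme gene, read 0.431, 0.366, 0.583, 0.685, 0.548 and 0.516 in prors1 columns 1 to 6, against 0.107, 0.131, 0.214, 0.110, 0.121 and 0.0899 in WT columns 1 to 6. The columns did not overlap: the lowest prors1 column (0.366) was above the highest WT column (0.214). Averaged by array, APS4 read 0.398, 0.634 and 0.532 in prors1 and 0.119, 0.162 and 0.105 in WT. The ratio of the means was 4.05. On deposited intensities 52.5% of the 2908 probes measured often enough to be fitted had all 3 prors1 arrays above all 3 WT arrays. A lack of overlap between arrays in this direction was thus the common case. No such share is given for single columns.

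AT3G53580, the diaminopimelate epimerase gene, read 0.259, 0.0853, 0.201, 0.144, 0.105 and 0.159 in prors1 columns 1 to 6, against 0.134, 0.117, 0.231, 0.202, 0.175 and 0.241 in WT columns 1 to 6. The highest of all 12 columns and the lowest were both readings of prors1 array 1. By array the intensities were 0.172, 0.173 and 0.132 in prors1 and 0.125, 0.216 and 0.208 in WT, and the groups overlapped through WT array 1. The ratio of the means was 0.868. On deposited intensities 5.47% of the tested probes had all 3 prors1 arrays below all 3 WT arrays, and AT3G53580 was not one of them.

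**Figure D1:**
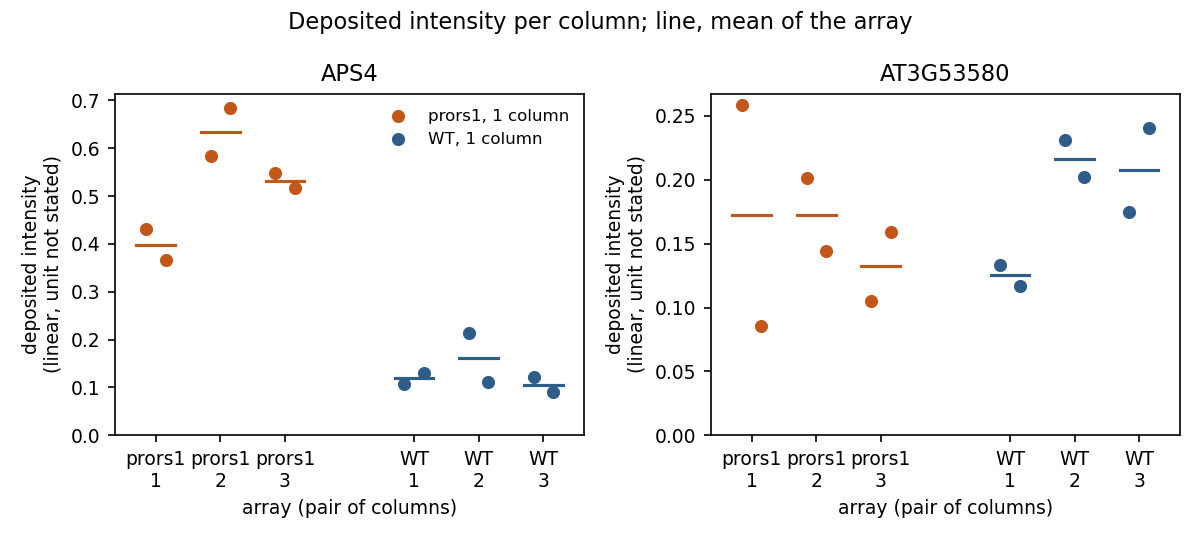
Deposited intensity (linear scale, unit not stated) of APS4 and AT3G53580 for every column, with prors1 arrays left of WT arrays. Each point is 1 column and each line the mean of the 2 columns of an array. All prors1 columns of APS4 lie above all WT columns, while those of AT3G53580 overlap, with the widest gap inside prors1 array 1 (0.259 and 0.0853).

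The rank of a probe within its own column does not change under any scaling or constant that keeps the order of the probes. APS4 lay at percentile 38.4, 59.5 and 64.2 of the probes above 0 on prors1 arrays 1 to 3, and at 21.9, 28.7 and 18.5 on WT arrays 1 to 3. The mean was 54.0 ± 14 in prors1 and 23.0 ± 5.2 in WT (SD), a shift of 31.0 percentage points. All 3 prors1 arrays lay above all 3 WT arrays, as did 20.7% of the tested probes. Single columns overlapped: prors1 column 2 was at 34.2 and WT column 3 at 40.0.

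AT3G53580 lay at percentile 11.2, 11.9 and 8.80 on prors1 arrays 1 to 3, and at 23.9, 39.6 and 45.1 on WT arrays 1 to 3. The mean was 10.7 ± 1.6 in prors1 and 36.2 ± 11 in WT, a shift of -25.5 percentage points. No column overlapped here, with a highest prors1 column at 19.7 and a lowest WT column at 21.4. Among the tested probes, 24.7% had all 3 prors1 arrays below all 3 WT arrays by percentile, and no such share is given for single columns. AT3G53580 thus ranked lower in prors1, while its mean intensities differed by less than the WT spread.

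**Figure D2:**
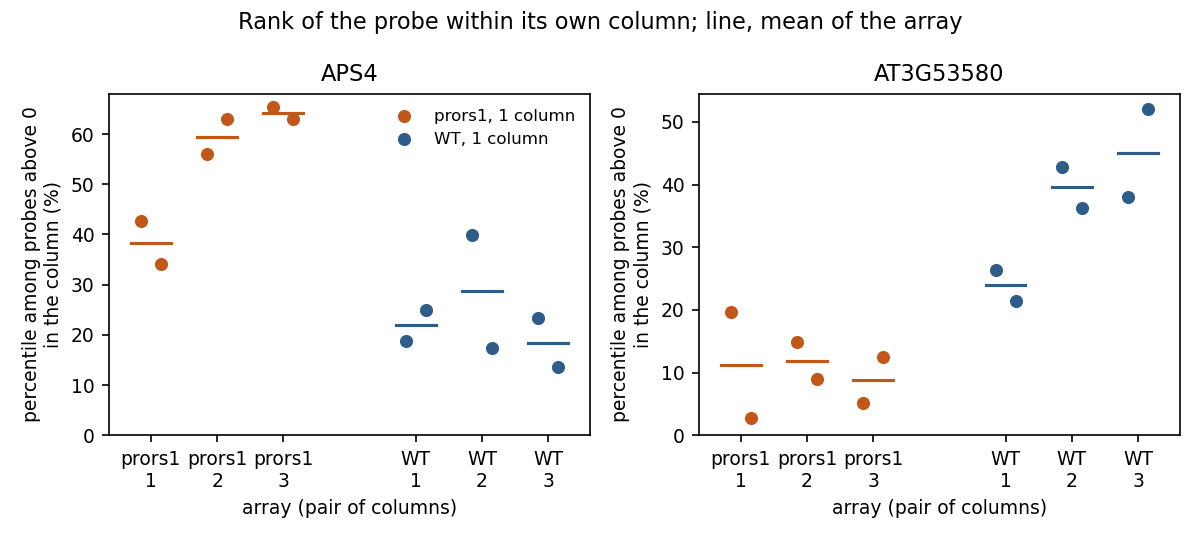
Percentile of the APS4 and AT3G53580 probes among the probes above 0 in the same column, with prors1 arrays left of WT arrays. Each point is 1 column and each line the mean of an array. APS4 averaged 54.0 in prors1 and 23.0 in WT, and AT3G53580 averaged 10.7 in prors1 and 36.2 in WT.

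After log2 transformation and quantile normalization, which gives all columns the same distribution, APS4 read -1.91, -1.25 and -1.09 on prors1 arrays and -2.51, -2.29 and -2.70 on WT arrays (normalized log2 level). Its log2 fold of prors1 over WT was 1.08 ± 0.28 (limma's moderated SE), a 2.12-fold higher level. The arrays did not overlap, as for 20.9% of the tested probes in this direction. Single columns did overlap, with prors1 column 2 at -2.04 and WT column 3 at -1.86. The columns of a WT array differed by 0.28 to 0.86, against a range of 0.41 between WT arrays. In prors1 these gaps were 0.08 to 0.27, against a range of 0.81. Of all tested probes, 11.4% had a log2 fold at or above that of APS4. As deposited the log2 fold of APS4 was 2.05 ± 0.30.

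The normalized log2 level of AT3G53580 was -3.62, -3.10 and -3.47 on prors1 arrays and -2.42, -1.87 and -1.70 on WT arrays. Its log2 fold was -1.40 ± 0.28, a 2.63-fold lower level in prors1. The arrays did not overlap, as for 24.9% of the tested probes in this direction, and 4.64% had a log2 fold at or below that of AT3G53580. As deposited its log2 fold was -0.25 ± 0.30 and the arrays overlapped. Both the size of the difference and the separation of the groups thus rest on putting the arrays on a common scale. Quantile normalization removes a shift shared by many probes, and whether that shift is technical was not tested. The 2 columns of prors1 array 1 differed by 2.02 on the normalized log2 scale, against 0.46 for the prors1 array whose columns lay closest and a range of 0.52 between the prors1 arrays. In WT the gaps between columns of an array (0.21 to 0.43) were smaller than the range between arrays (0.72).

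The shift of the deposited values differed with brightness. Over all tested probes the median log2 fold was 0.77 as deposited and -0.06 after quantile normalization. The tested probes were split into 8 classes by their mean over the 12 columns. APS4, with a mean intensity of 0.325, fell in the fourth dimmest class (class 4), where the median deposited log2 fold was 0.97 and the middle 50% ran from 0.51 to 1.63. Its own deposited log2 fold of 2.05 lay above that range. AT3G53580, with a mean intensity of 0.171, fell in class 2, where the median was 0.87 and the middle 50% ran from 0.40 to 1.56. Its deposited log2 fold of -0.25 lay below that range and had the opposite sign to the class median. Probes of the brightest class had a median of 0.02. A smaller difference with brightness remained after quantile normalization. The median normalized log2 fold was -0.50 in class 1, -0.17 in class 2, 0.03 in class 4 and -0.19 in class 8. In class 2, that of AT3G53580, the middle 50% ran from -0.64 to 0.49. AT3G53580 lay near the dim edge of this class, which began at a mean intensity of 0.168. In class 1, the next dimmer one, the middle 50% ran from -1.06 to 0.13.

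**Figure D3:**
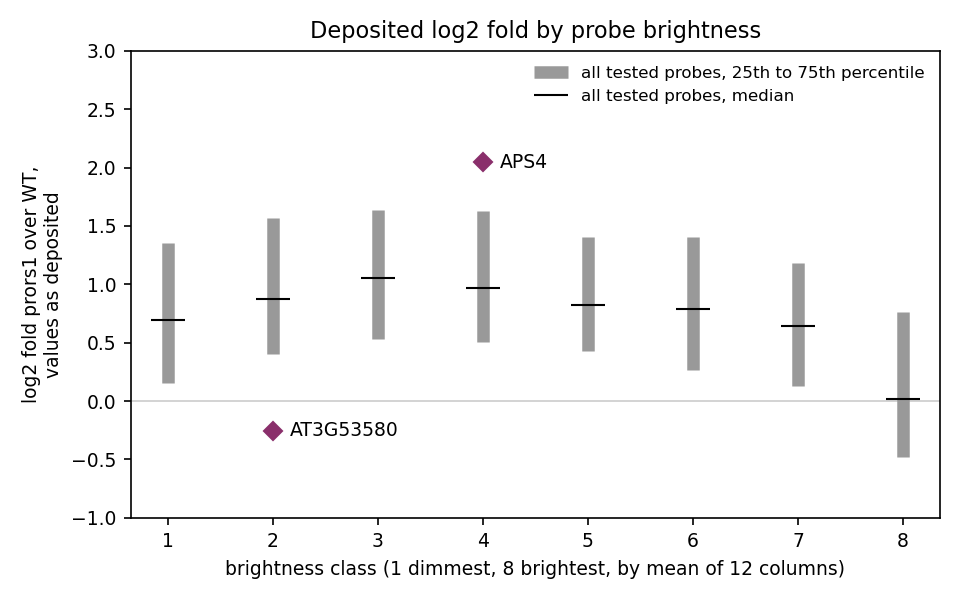
Log2 fold of prors1 over WT on the deposited values (vertical axis) for 8 classes of probe brightness (horizontal axis, dimmest at the left). Grey bars span the 25th to the 75th percentile and black ticks mark the median of all tested probes, and diamonds mark the members. APS4 (2.05) lies above the bar of its class and AT3G53580 (-0.25) below the bar of its class.

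The members can also be set against each other inside a column, where any common factor cancels. The size of this difference has no meaning of its own, because the probes differ, but its change between groups shows unequal change. On the log2 scale APS4 minus AT3G53580 was 0.74, 2.10, 1.54, 2.25, 2.38 and 1.70 in prors1 columns 1 to 6, against -0.33, 0.17, -0.11, -0.87, -0.53 and -1.42 in WT columns 1 to 6. The columns did not overlap. By array the difference averaged 1.78 ± 0.32 in prors1 and -0.52 ± 0.45 in WT (SD, 3 arrays each), 2.30 apart. The pair was chosen with its opposite contrasts known, so this separation follows from the choice and is a description. The value needs no scaling of columns by a common factor, but a shift that differs with brightness does not cancel in it. APS4 and AT3G53580 lay in different brightness classes (4 and 2). Its lowest prors1 value came from prors1 column 1, the brightest column of AT3G53580.

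Few other genes of these pathways had a probe of their own. Of the 28 other genes listed for sulfate assimilation, cysteine, glutathione and sirohaem synthesis, 1 was tested. APS1, APS2 and APS3, the other ATP sulfurylase genes, were not among those tested, and whether the APS4 probe also binds their transcripts was not tested. SIRB encodes sirohydrochlorin ferrochelatase, which inserts iron in the last step of sirohaem synthesis. It read 0.355, 0.466 and 0.388 on prors1 arrays and 0.378, 0.485 and 0.335 on WT arrays. The deposited intensities of SIRB overlapped. Its normalized levels did not, with prors1 lower, as for 24.9% of the tested probes. The normalized level of SIRB fell by 0.84 ± 0.22 (log2 fold, moderated SE) in prors1 at a limma adjusted p of 0.0294. In this fit 13.5% of all tested probes were called lower and 12.8% higher. Its log2 fold was 0.02 as deposited (adjusted p = 0.949), and the call ended without any 1 array other than prors1 array 3 (adjusted p = 0.0643 to 0.0756). Over all its alternatives the adjusted p of SIRB ran from 0.000186, with 6 columns as separate samples, to 0.949. None of the 16 genes listed for sulfate transport and the response to sulfur starvation was tested (0).

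Of the 25 other genes listed for lysine and the aspartate family, 1 was tested and 0 passed. A further 4 were named only on probes shared with another gene and were not used. CBL, the cystathionine beta-lyase of methionine synthesis, read 0.228, 0.373 and 0.111 on prors1 arrays and 0.0905, 0.157 and 0.116 on WT arrays, and the groups overlapped. Its log2 fold was -0.30 ± 0.45 (limma adjusted p = 0.658), with the sign turned as deposited (0.82) and without prors1 array 3 (0.20).

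Of 62 genes listed for the synthesis of other amino acids, 4 were tested and 0 passed. AT3G58610, ketol-acid reductoisomerase, and AT3G23940, dihydroxyacid dehydratase, act one after the other in the synthesis of the branched-chain amino acids. AT3G58610 averaged 0.452 ± 0.13 in prors1 and 0.344 ± 0.0088 in WT (deposited intensity, SD), with a normalized log2 fold of -0.49 ± 0.35 (limma adjusted p = 0.319). AT3G23940 averaged 0.338 ± 0.068 in prors1 and 0.259 ± 0.083 in WT, with a log2 fold of -0.51 ± 0.25 (limma adjusted p = 0.155). Both signs turned as deposited (0.36 and 0.41). AT5G10920, the argininosuccinate lyase of arginine synthesis, averaged 1.63 ± 0.34 in prors1 and 0.817 ± 0.51 in WT, with a log2 fold of 0.92 ± 0.41 (limma adjusted p = 0.125). WT array 3 was low for this gene, at 0.260 against 0.939 and 1.25 on the other WT arrays, and without it the log2 fold was 0.42. AT-HF (HISN4), the imidazole glycerol phosphate synthase of histidine synthesis, averaged 0.992 ± 0.11 in prors1 and 0.499 ± 0.030 in WT, with a log2 fold of 0.38 ± 0.26 (limma adjusted p = 0.318). AT-HF was called higher as deposited (adjusted p = 0.0121, with a range of 0.0121 to 0.787 over its alternatives).

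Over the 4 lists together, 1 of 6 tested genes other than the members passed, lower in prors1, against 26.3% of all tested probes in either direction. Their median log2 fold was -0.39, against -0.06 over all tested probes. With 6 genes spread over several pathways, this count describes those genes and not the pathways.

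**Figure D4:**
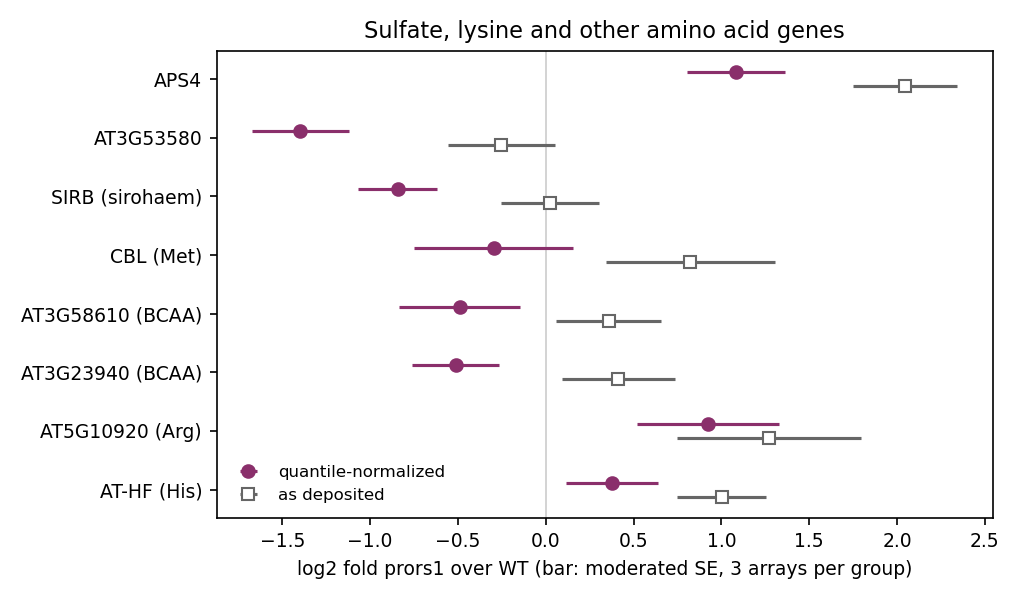
Log2 fold of prors1 over WT for APS4, AT3G53580 and the 6 other tested pathway genes, with filled circles for quantile-normalized values and open squares for deposited values. Bars are moderated standard errors over 3 arrays per group, BCAA stands for branched-chain amino acids, and SIRB was the only one of the 6 called after normalization. All 8 deposited folds lie to the right of the normalized ones.

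The genes whose normalized profiles were most like each member were found among 570 others with a probe of their own and a value on all 6 arrays. Likeness was the root mean square difference of log2 values, each gene centred on its own mean over the 6 arrays. For APS4 the nearest were AT4G20760 (0.19), AT3G29410 (0.20), AT2G37880 (0.22) and AT2G41950 (0.22), against a median of 0.74 over all candidates. Their log2 folds were 1.35, 1.29, 0.79 and 0.96. These genes were picked for their likeness over the same 6 arrays, so the split between groups and the order of arrays they share with APS4 follow from the choice.

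For AT3G53580 the nearest was AT4G24090 (0.11), followed by GLDH (0.22), AT2G04360 (0.24) and AT3G16760 (0.25), against a median of 0.81. GLDH encodes the mitochondrial enzyme of the last step of ascorbate synthesis. The log2 folds were -1.33, -1.14, -1.10 and -1.53 in the same order. As deposited AT4G24090 read 0.526 ± 0.091 in prors1 and 0.877 ± 0.35 in WT, while GLDH read 0.293 ± 0.080 in prors1 and 0.331 ± 0.053 in WT. The mean intensities of GLDH differed by less than the spread of either group, and its normalized level was lower in prors1. Here too the shared split and order of arrays follow from the choice.

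**Figure D5:**
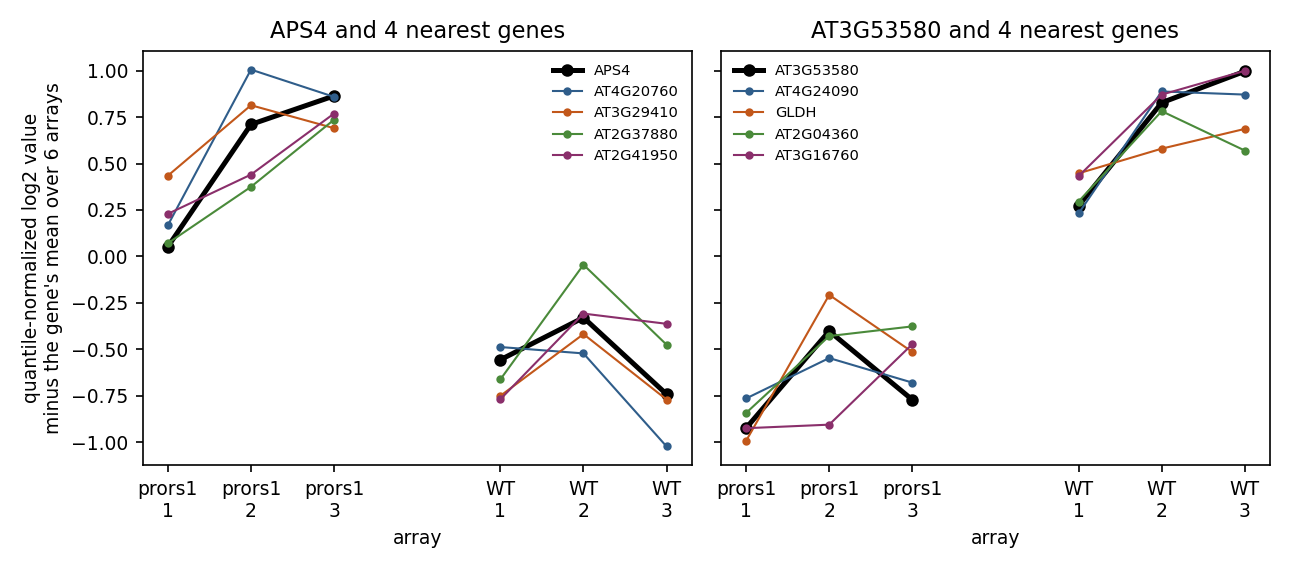
Normalized log2 value minus the gene's own mean over 6 arrays, for APS4 and its 4 nearest genes (left) and AT3G53580 and its 4 nearest genes (right), with prors1 arrays left of WT arrays. Lines join the arrays of a group and imply no order. The thin lines lie close to the member's thick line because the genes were picked for that.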

How the data were processed

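The authors deposited linear intensities, with 1 column for each sample. How they scanned, background-corrected or scaled the arrays is not given in the sources used. Column headings matched all 12 samples, with 0 left over, and titles gave the groups and replicate numbers.

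Values of 0 were treated as missing. The others were put on a log2 scale, quantile normalized across all 12 columns and averaged over the 2 columns of an array, with limma 3.58.1 (R 4.3.3). A probe was fitted where both groups had 4 or more of 6 values above 0, which 2908 of 3439 did. The model (lmFit, eBayes) held group alone. Its two-sided p-values were adjusted by Benjamini-Hochberg over all fitted probes, and 0.05 was the threshold. An exact permutation test of 3 arrays against 3 cannot go below p = 0.1. The fit was tested on simulated data.

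Probes were named through the platform annotation of 2016, with symbols from the TAIR10.1 gene table. Of 3439 probes, 692 named 1 gene, 870 several and 1877 none, and 690 of the 692 matched the gene table. Coordinates are not printed, since the build behind the probes is not stated. Named are both members, the tested genes of the lists and the 4 nearest profiles of each member. The members and lists were chosen with earlier results of these data known. Alternatives covered normalization, pseudocounts, filters, blocks, the averaging of columns and the omission of each array.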

Additional observations from a re-analysis of the deposited data

Results flagged for a closer look

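Of 16 groups of 6 columns examined, 1 held a column far from the rest. WT column 3 of APS4 read 0.214, while the other WT columns read 0.0899 to 0.131. Divided by the range of the 6 columns, its gap to the nearest other column was above Dixon's critical value for 6 values. Chance flags about 1 in 20 groups, and the 6 columns are pairs of readings of 3 arrays, so they are not 6 independent values. Column 4, the other reading of the same array, was at 0.110. Without WT array 2 the log2 fold of APS4 was 1.19, against 1.08 with it.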

How the results depend on the processing

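The log2 folds of APS4 and AT3G53580 kept their signs under every alternative run, in the contrast that chose the genes. As deposited that of AT3G53580 was smaller than its moderated SE (-0.25 ± 0.30). The log2 folds of the members moved beyond the spread of the arrays only as deposited (2.05 and -0.25). Otherwise they ran from 0.87 to 1.33 for APS4 and from -1.61 to -1.07 for AT3G53580, with median scaling at 1.14 and -1.15 and cyclic loess at 1.05 and -1.25. Removing a running median along the probe numbers (0.87 and -1.24) and a pseudocount of 0.05 (0.88 and -1.07) were chosen after the data were seen. Leaving out 1 array gave 0.92 to 1.33 for APS4 and -1.61 to -1.25 for AT3G53580, and rank shifts of 25.9 to 38.8 and -31.7 to -21.1 percentage points. The count of changed probes, 764 as reported (372 higher, 392 lower), was 1332 as deposited (1250 and 82), 1443 with 6 columns as separate samples, and 393 to 562 with 1 array left out, lowest without prors1 array 2. The count of the 6 pathway genes called was 3 with 6 columns as separate samples and 0 to 1 with 1 array left out. The array number as a replicate block gave 840 calls, 705 of them shared with the 764, and the log2 folds of the members stayed at 1.08 and -1.40. With 6 columns and the replicate number as a block 1532 probes and 5 of the 6 pathway genes were called. Columns of an array counted as separate give more degrees of freedom by construction. Same-numbered arrays deviated together weakly (r = 0.183, 0.083 and 0.238 across probes), while differently numbered arrays had r from -0.177 to -0.013. Each array thus came closest to its namesake, which is a hint from the data and not from the design. Deviations were taken from the mean of the 3 arrays of a group. A positive r with 1 array therefore pushes r with the others below 0 by construction. These correlations cannot settle whether the numbers pair the arrays, because the labels state no pairing. The signs of SIRB (0.024), CBL (0.82), AT3G58610 (0.36) and AT3G23940 (0.41) turned as deposited, and CBL ran from -0.74 to 0.20 with 1 array left out. Over the 6 pathway genes and all alternatives, 79 values kept direction and side of the threshold, 7 gained a call, 5 were no longer called at the same sign and 5 turned. SIRB as deposited is counted among those that turned, and it lost its call as well. The cause was not tested. No other probe names APS4 or AT3G53580 alone, so another probe choice was not run.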
